A study of Mus musculus with 6 samples.

Results

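The MAP kinase phosphatases examined here were 8 dual-specificity phosphatase genes, Dusp1, Dusp2, Dusp4, Dusp5, Dusp6, Dusp7, Dusp10 and Dusp16, together with the Sprouty genes Spry1 and Spry2. They were found by matching the Ensembl mouse gene IDs of the count table to these symbols, which gave 10 members of 52856 rows. Spry1 and Spry2 encode adaptors and not phosphatases, so the name covers 8 of the 10. RNA was sequenced from splenic CD4+ T cells of C57BL/6 mice aged 8 weeks, either wild type (WT, 3 libraries) or miPEP31-/- (miPEP31 KO, 3 libraries). Both groups had been stimulated with anti-CD3 and anti-CD28 antibodies for 48 hours, and no unstimulated cells were analysed here. The peptide miPEP31 is read from the primary miR-31 transcript, and the comparison asks what its loss changes in activated helper T cells. The labels do not say whether the libraries of a group came from separate mice, so the p-values measure only the spread between these libraries, which may be technical.

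MAP kinases are switched on by phosphorylation of a threonine and a tyrosine in their activation loop. In T cells, engagement of the antigen receptor activates the kinase ERK through the small G protein Ras, and costimulation and stress activate the kinases JNK and p38. Dual-specificity phosphatases remove both phosphates, and many of them are themselves induced by the kinases they switch off, which makes them feedback brakes. Sprouty proteins act higher up and restrain the Ras to ERK route at the membrane. A level of mRNA says nothing of the activity of any of these proteins, and kinase phosphorylation was not analysed here.

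The phosphatases share a catalytic signature, a histidine and a cysteine followed after 5 residues by an arginine. A search of the translated GENCODE M21 coding sequences found it once in each of the 8 phosphatases and in neither Sprouty. Genes other than the members were not searched for it. The 36 coding bases around it are shown 5′ to 3′, with the codon of the catalytic cysteine in capitals.
Dusp1: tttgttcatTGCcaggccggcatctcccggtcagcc
Dusp2: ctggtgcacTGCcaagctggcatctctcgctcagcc
Dusp4: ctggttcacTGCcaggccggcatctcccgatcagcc
Dusp5: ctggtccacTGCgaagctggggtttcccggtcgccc
Dusp6: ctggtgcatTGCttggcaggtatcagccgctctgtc
Dusp7: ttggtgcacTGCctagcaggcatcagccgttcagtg
Dusp10: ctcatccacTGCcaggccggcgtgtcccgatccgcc
Dusp16: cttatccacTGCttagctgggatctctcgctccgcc
Of the 36 bases, 16 were the same in all 8 genes, and 7 of the 12 codons gave the same amino acid. Over whole proteins, identity ranged from 15.6% to 63.4% across the 28 pairs of phosphatases. The closest pair was Dusp6 and Dusp7, followed by Dusp1 and Dusp4 at 59.6%, and Spry1 and Spry2 were 52.4% identical. No run of 50 bases was shared between the transcripts of any 2 members.

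Library totals lay between 22865487 and 26295776 counts. CD4 T cell markers were abundant in every library, with Cd4 at 421 to 498 CPM (counts scaled by edgeR to a common library size) in WT and 295 to 311 CPM in KO, and Cd3e at 175 to 179 and 142 to 159 CPM. Of 14387 genes tested, 47.3% passed the edgeR quasi-likelihood test at an adjusted p under 0.05, with 25.1% higher and 22.2% lower in the KO. In 59.1% of them no KO library lay within the range of WT libraries, nor the reverse. These shares are the background for every count below. In bulk RNA, fewer cells of a type and less RNA per cell cannot be told apart.

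All 10 members passed the filter on low counts. Dusp2, Dusp4, Dusp5, Dusp6 and Spry2 were higher in the KO, Dusp7 and Spry1 were lower, and Dusp1, Dusp10 and Dusp16 did not pass. The count of 5 higher members stands beside a background of 25.1%, and the count of 2 lower members beside 22.2%. The median log2 fold change was 0.31 over the 10 members and 0.01 over all genes tested. The members were chosen with earlier results of these data known, so these contrasts are a description and not a test. In the 7 members that passed, the 2 groups of libraries did not overlap, and in the other 3 they did. Over all genes tested, the share without overlap was 59.1%.

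**Figure D1:**
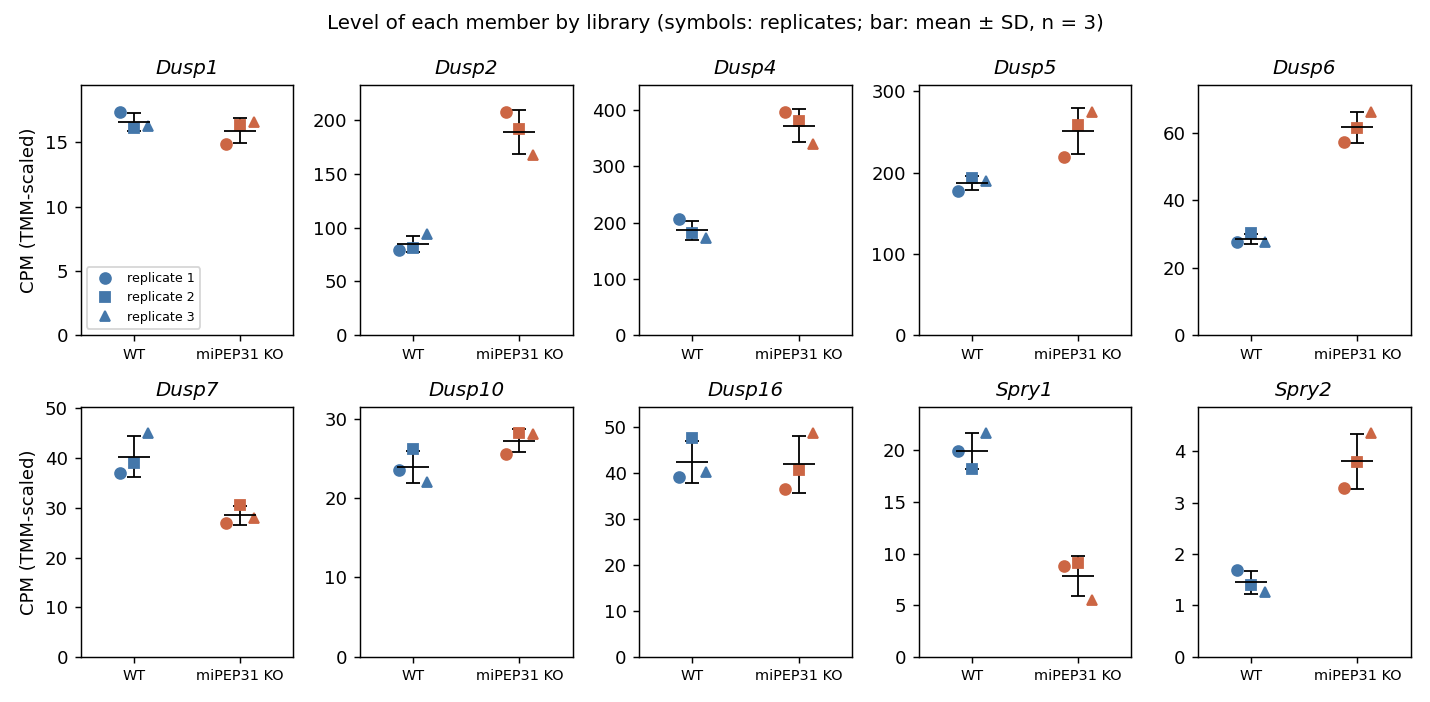
Level of each member in every library, in CPM on axes that start at 0. Symbols are replicates and bars the mean ± SD (n = 3). The KO libraries lie above the WT libraries for Dusp2, Dusp4, Dusp5, Dusp6 and Spry2, below them for Dusp7 and Spry1, and partly overlap them for Dusp1, Dusp10 and Dusp16.

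Dusp1, Dusp2, Dusp4 and Dusp5 are the inducible phosphatases of the nucleus, and 3 of these 4 were higher in the KO. Summed over the 4 genes, the level went from 475 ± 4.24 CPM in WT to 828 ± 26.1 CPM in KO (SD, n = 3 each). Dusp2 (ENSMUSG00000027368, chromosome 2, 127336159 to 127338376, GRCm38), which encodes a phosphatase first known from activated lymphocytes, had 79.6, 81.2 and 93.8 CPM in WT and 208, 192 and 167 CPM in KO. Every KO library was well above the highest WT library, and KO replicate 1 was the highest. The gene rose 2.23-fold (log2 fold change 1.15, SE 0.10, edgeR adjusted p = 8.43e-05).

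Dusp4 (ENSMUSG00000031530, chromosome 8, 34807297 to 34819894), which acts on ERK and JNK, stood at 206, 181 and 173 CPM in WT and at 397, 380 and 340 CPM in KO. The groups were far apart, again with KO replicate 1 highest. Its rise was 2.00-fold (log2 fold change 1.00, SE 0.09, edgeR adjusted p = 9.21e-05).

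Dusp5 (ENSMUSG00000034765, chromosome 19, 53529109 to 53542431), a phosphatase that holds ERK in the nucleus, was at 177, 193 and 190 CPM in WT and 219, 258 and 275 CPM in KO. Here the lowest KO library was KO replicate 1, close above the highest WT library. Dusp5 rose 1.34-fold (log2 fold change 0.43, SE 0.09, edgeR adjusted p = 0.00549). A gene model on the opposite strand, AC137853.2, shares 547 exonic bases with Dusp5. AC137853.2 was not among the genes counted, and whether the Dusp5 counts include reads from it is not known.

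Dusp1 (ENSMUSG00000024190, chromosome 17, 26505590 to 26562128), the immediate-early phosphatase of p38 and JNK, was the member of this class that did not pass. Its WT libraries had 17.4, 16.1 and 16.2 CPM and its KO libraries 14.8, 16.3 and 16.6 CPM, so the groups overlapped. The log2 fold change was -0.06, with a 95% interval from -0.27 to 0.15 (edgeR adjusted p = 0.628). Its neighbour Ergic1, on the opposite strand, shares 11 exonic bases with it. A rise of the size seen in Dusp2, Dusp4 or Dusp5 lies outside that interval.

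Dusp6 and Dusp7 encode the cytoplasmic phosphatases that act mainly on ERK. These closest relatives among the members differed in direction. Dusp6 (ENSMUSG00000019960, chromosome 10, 99263231 to 99267489), a widely used readout of ERK activity, had 27.5, 30.2 and 27.7 CPM in WT and 57.2, 61.5 and 66.3 CPM in KO. The KO libraries were about as far above the WT libraries as for Dusp2, but with KO replicate 3 highest. It rose 2.16-fold (log2 fold change 1.11, SE 0.08), and its edgeR adjusted p of 3.86e-05 was the smallest among the members.

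Dusp7 (ENSMUSG00000053716, chromosome 9, 106368632 to 106375724) had 37.0, 39.1 and 45.0 CPM in WT and 27.0, 30.7 and 28.0 CPM in KO. All KO libraries were below all WT libraries. It was 1.41-fold lower (log2 fold change -0.50, SE 0.09, edgeR adjusted p = 0.00341). Scaled to transcript length, the ratio of Dusp6 to Dusp7 went from 0.818 ± 0.0961 in WT to 2.49 ± 0.216 in KO (SD, n = 3 each). Dusp7 was thus the more abundant transcript of the pair in all WT libraries, and Dusp6 in all KO libraries.

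Dusp10 and Dusp16 encode phosphatases that prefer JNK and p38, and neither passed. Dusp10 (ENSMUSG00000039384, chromosome 1, 184013302 to 184075636) had 23.5, 26.1 and 22.1 CPM in WT and 25.5, 28.1 and 28.1 CPM in KO, with 1 KO library inside the WT range. Its log2 fold change was 0.19 with a 95% interval from -0.02 to 0.39 (edgeR adjusted p = 0.118). Dusp16 (ENSMUSG00000030203, chromosome 6, 134715468 to 134792625) had 39.1, 47.5 and 40.2 CPM in WT and 36.4, 40.6 and 48.5 CPM in KO, and the groups covered the same range. The log2 fold change was -0.02, the interval went from -0.29 to 0.26, and the edgeR adjusted p was 0.928. For both genes a change as large as that of Dusp4, in either direction, lies outside the interval.

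The Sprouty genes moved in opposite directions. Spry1 (ENSMUSG00000037211, chromosome 3, 37639947 to 37644598) had 20.0, 18.2 and 21.6 CPM in WT and 8.84, 9.08 and 5.55 CPM in KO. All KO libraries were far below the WT libraries, and KO replicate 3 was the lowest. It was 2.54-fold lower (log2 fold change -1.35, SE 0.18, edgeR adjusted p = 7.05e-04). An uncharacterised gene model on the opposite strand, Gm42922, shares 710 exonic bases with Spry1, and without known strand handling their reads cannot be told apart. Gm42922 was given 4.96 to 30.8 counts per library, against 129 to 497 for Spry1.

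Spry2 (ENSMUSG00000022114, chromosome 14, 105891947 to 105896819) was the least abundant member, with 39, 33 and 29 counts in WT and 76, 102 and 101 in KO. These counts correspond to 1.69, 1.39 and 1.26 CPM in WT and 3.28, 3.80 and 4.34 CPM in KO. The groups were well apart, with KO replicate 3 highest. Spry2 rose 2.62-fold (log2 fold change 1.39, SE 0.21, edgeR adjusted p = 0.00130). That estimate has the widest interval of the 10, from 0.90 to 1.88 on the log2 scale. Per length, Spry1 exceeded Spry2 by 8.90 to 12.9 times in WT and by 0.961 to 2.03 times in KO, where a value under 1 means that Spry2 was the higher.

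**Figure D2:**
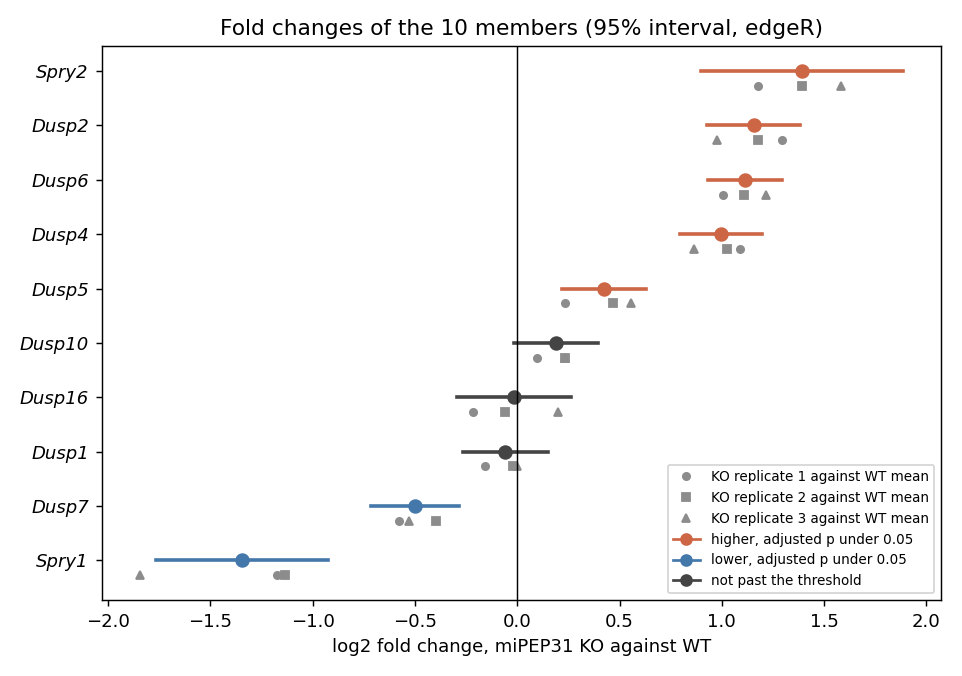
Log2 fold change of each member, miPEP31 KO against WT, with its 95% interval from edgeR. Small grey symbols are the single KO libraries against the WT mean. Spry2, Dusp2, Dusp6 and Dusp4 lie near or above 1, Dusp5 at 0.43, Dusp10, Dusp16 and Dusp1 have intervals that include 0, and Dusp7 and Spry1 lie below 0.

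In size, the member changes were moderate for these data. Of all genes tested, 8.98% had a larger absolute log2 fold change than Spry2, 9.57% than Spry1, 12.4% than Dusp2, 13.3% than Dusp6 and 15.4% than Dusp4. For Dusp7 and Dusp5 the shares were 36.3% and 41.9%.

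The KO libraries did not rank alike across the members. KO replicate 1 was the highest KO library for Dusp2 and Dusp4 and the lowest for Dusp5, Dusp6 and Spry2, and KO replicate 3 was the reverse. Against the WT mean, the log2 difference of Dusp2 was 1.29 in KO replicate 1, 1.18 in KO replicate 2 and 0.98 in KO replicate 3. For Spry2 it was 1.18, 1.39 and 1.58 in the same libraries. The direction of each of the 7 changes was the same in all 3 KO libraries.

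To set genes beside each other, levels were divided by the length of each gene's reference transcript. Which transcripts these cells use was not examined, so small differences between genes are uncertain. Among the WT libraries Dusp5 was highest at 75.5 ± 3.51 CPM per kb (SD, n = 3), then Dusp4 at 68.1 ± 6.18, and their ranges overlapped. Dusp2 followed at 52.5 ± 4.79, below every library of Dusp4. A gap separated these from Dusp7 at 12.6 ± 1.29 and Dusp6 at 10.2 ± 0.543 CPM per kb. Dusp10 at 8.57 ± 0.740, Dusp1 at 8.33 ± 0.353 and Dusp16 at 8.28 ± 0.891 did not differ beyond their spread, and Spry1 at 7.19 ± 0.626 overlapped Dusp16. Spry2 was lowest at 0.694 ± 0.105 CPM per kb.

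The KO libraries had another order. Dusp4 was highest at 136 ± 10.8 CPM per kb, then came Dusp2 at 117 ± 12.7 and Dusp5 at 101 ± 11.5, with overlapping ranges between neighbours. Dusp6 stood at 22.0 ± 1.62 CPM per kb, above all of Dusp10 at 9.76 ± 0.533, Dusp7 at 8.88 ± 0.592, Dusp16 at 8.20 ± 1.21 and Dusp1 at 8.00 ± 0.471. Spry1 at 2.82 ± 0.712 and Spry2 at 1.82 ± 0.255 CPM per kb overlapped. In both groups the 3 nuclear phosphatase genes Dusp2, Dusp4 and Dusp5 were therefore the most abundant members.

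**Figure D3:**
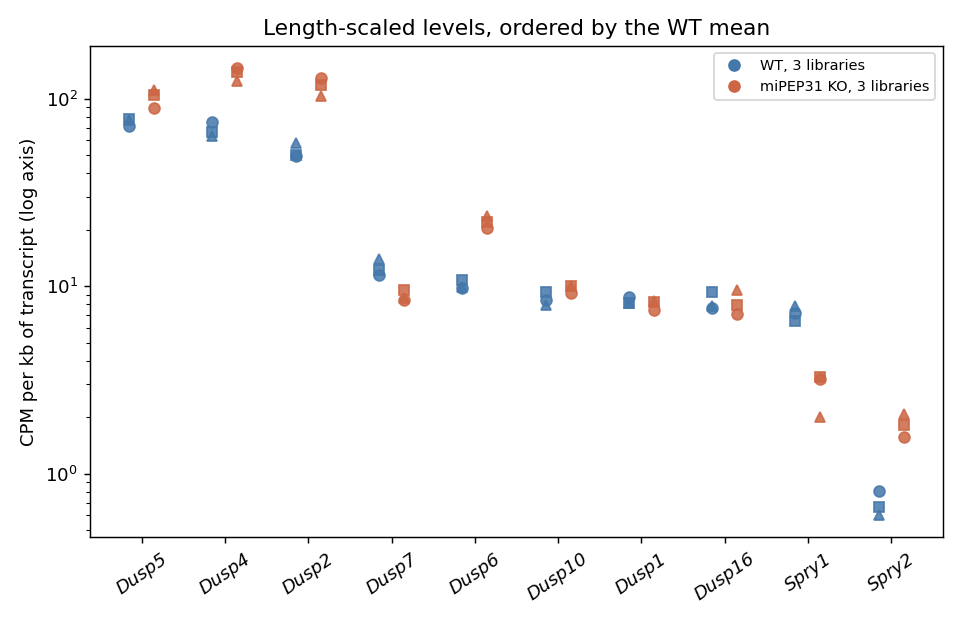
Level of each member per kb of its reference transcript, on a log axis, ordered by the WT mean. Each symbol is a library. Dusp5, Dusp4 and Dusp2 stand above the rest in both groups, Dusp6 leaves the middle group in the KO, and the Sprouty genes, which were 10.5-fold apart on average in WT, come together in the KO.

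Promoter sequences were looked at because 5 members moved the same way. RefSeq promoters (GRCm38.p6, 250 bases before to 50 after the RefSeq start) were found for 9 of the 10 members, Dusp4 being the exception. They were searched on both strands. For Dusp1 and Dusp10 the RefSeq start lies well inside the gene span given above, and other starts were not searched. The stretch from 150 to 51 bases before the start is shown for the 4 members with matches there and for Dusp6, which had none, with matches in capitals.
Dusp1 (chr17:26508523-26508622, minus strand): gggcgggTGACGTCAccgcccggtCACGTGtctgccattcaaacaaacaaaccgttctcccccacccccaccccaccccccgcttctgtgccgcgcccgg
Dusp2 (chr2:127336009-127336108, plus strand): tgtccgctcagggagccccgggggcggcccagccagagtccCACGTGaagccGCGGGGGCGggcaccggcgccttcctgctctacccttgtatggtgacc
Dusp5 (chr19:53528995-53529094, plus strand): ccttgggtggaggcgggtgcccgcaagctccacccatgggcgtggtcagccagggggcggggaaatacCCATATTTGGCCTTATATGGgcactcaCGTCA
Dusp16 (chr6:134792679-134792778, minus strand): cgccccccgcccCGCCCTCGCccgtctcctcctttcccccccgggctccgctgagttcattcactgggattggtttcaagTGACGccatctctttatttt
Dusp6 (chr10:99263081-99263180, plus strand): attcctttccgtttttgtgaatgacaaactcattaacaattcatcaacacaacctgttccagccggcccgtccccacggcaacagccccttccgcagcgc
The cAMP response element TGACGTCA, bound by CREB-family factors, was present in Dusp1, against 1.79% of 32851 promoters. Its short form TGACG, which is also counted inside the full element, was in Dusp1, Dusp2, Dusp5 and Dusp16, against 20.8%. In Dusp2 the short form lay 6 bases after the start, outside the stretch shown. Dusp1 also had it 191 bases before the start, likewise outside that stretch. The CArG box, bound by serum response factor, occurred at 2 adjoining places in Dusp5, starting 82 and 72 bases before the start, and in 1.63% of all promoters. An EGR site (GCGNGGGCG, present in 5.55%) was found in Dusp2 and Dusp16, and an E-box (CACGTG, present in 7.15%) in Dusp1 and Dusp2. An AP-1 site (TGANTCA, 7.81%), an ETS site (CCGGAAG, 8.86%) and an interferon-stimulated response element (3.44%) were in none of the 9 windows. Members with matches included genes that rose and genes that did not pass, and Dusp6, Dusp7, Dusp10, Spry1 and Spry2 had no match. A match is a description of the letters only.

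The seed of miR-31-5p was searched for because miPEP31 comes from that microRNA's primary transcript. The mature sequence from RefSeq (GRCm38.p6) is shown with its seed, bases 2 to 8, in capitals, followed by the matches in members with the letters opposite the seed in capitals.
miR-31-5p: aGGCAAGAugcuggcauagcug
Dusp2: cctccctcctcaTCTTGCCgtcccactggg
Dusp7: agcagtttaaaaTCTTGCCacagttgagaa
Of the 10 annotated 3′ UTRs, 8 had no match, and those of Dusp2 and Dusp7 had 1 each. Among tested genes with 3′ UTRs of 0.8 to 1.25 times the same length, 7.10% of 1422 had a match for the length of Dusp2 and 14.9% of 1790 for that of Dusp7. Of these 2 members, Dusp2 rose and Dusp7 fell. Mature microRNAs were not measured here.

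The rest of the MAP kinase pathway was taken from lists chosen for the genes' roles. Over all lists 29 of 112 tested genes were higher (25.9%), 30 were lower (26.8%) and 53 missed the threshold. Their median log2 fold change was 0.03. These shares are near the 25.1% and 22.2% of all genes tested. The kinases themselves were 4 of 9 higher and 2 lower, with a median of 0.10. Mapk14, the p38 kinase of most cells, rose from 58.8 ± 2.98 to 84.9 ± 5.15 CPM (log2 fold change 0.53, SE 0.07), and Mapk9, a JNK gene, rose by 0.32 (SE 0.06). The p38 genes Mapk12 and Mapk11 fell by 0.90 (SE 0.16) and 0.48 (SE 0.11) on the log2 scale. The count of higher kinases was 2 without any 1 of the WT libraries and also with upper-quartile scaling. It stayed at 4 only with plain library sizes and was 3 in all other alternatives.

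Among the kinases upstream of them, 4 of 20 were higher and 6 lower. The MAP kinase kinase genes Map2k1, Map2k3 and Map2k4, which act on ERK, on p38 and on JNK and p38, rose by 0.47 (SE 0.06), 0.49 (SE 0.07) and 0.43 (SE 0.06). Ksr1, the scaffold of the ERK cascade, fell from 156 ± 10.1 to 96.3 ± 3.41 CPM (log2 fold change -0.70). Of the kinases activated by MAP kinases, 2 of 10 were higher and 4 lower. Mapkapk5 rose by 0.70 (SE 0.10) and Mknk1 by 0.37 (SE 0.06), whereas Rps6ka3, which encodes the ERK-activated kinase RSK2, fell by 0.69 (SE 0.06) and Rps6ka5 by 1.10 (SE 0.17).

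Ras proteins and their regulators were 4 of 22 higher and 7 lower, and 7 higher and 6 lower with plain library sizes. Rasgrp1, the Ras activator downstream of the T cell receptor, fell 2.22-fold, from 228 ± 20.7 to 103 ± 8.39 CPM (edgeR adjusted p = 5.50e-05), and Rasgrp2 fell 3.56-fold, from 14.5 ± 0.725 to 4.06 ± 1.55 CPM. In the other direction, Rasa1, a GTPase-activating protein that turns Ras off, rose from 50.8 ± 0.896 to 77.2 ± 5.18 CPM, and the inhibitory adaptor gene Dok1 from 21.8 ± 1.09 to 40.2 ± 1.93 CPM (SD, n = 3 each).

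Relatives of Sprouty also differed among themselves. Spred2, which like Sprouty restrains Ras and ERK, fell 2.38-fold, from 108 ± 3.84 to 45.3 ± 4.94 CPM (edgeR adjusted p = 3.55e-05). Spred3 fell 2.83-fold, from 24.1 ± 3.18 to 8.52 ± 4.45 CPM, a call that did not hold when genes of low count were kept in the test (edgeR adjusted p = 0.0785). Spred1 passed narrowly, at 31.6 ± 1.19 and 40.4 ± 6.96 CPM (edgeR adjusted p = 0.0431), and lost its call in 8 of 13 alternatives. Of the 4 tested genes in this list, 1 was higher and 2 lower. The count of higher genes fell to 0 without any 1 of the WT libraries, without KO replicate 1 or 2, and with limma-voom, upper-quartile scaling or the replicate block, and it was 2 without KO replicate 3.

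Of the other dual-specificity phosphatase genes, 4 of 14 tested were higher and 2 lower, with a median log2 fold change of 0.17. Dusp14 rose from 5.79 ± 0.765 to 11.5 ± 1.96 CPM, Dusp12 from 6.24 ± 0.337 to 10.1 ± 1.16 CPM, and Dusp8, a relative of Dusp16, from 0.259 ± 0.0468 to 0.710 ± 0.0657 CPM (edgeR adjusted p = 0.0107). The Dusp8 call was lost with DESeq2 (adjusted p = 0.0575) and without WT replicate 2 (edgeR adjusted p = 0.0535). Ssh3, a slingshot phosphatase gene that acts on cofilin, fell from 14.6 ± 1.62 to 9.40 ± 1.94 CPM (edgeR adjusted p = 0.0152), which missed the threshold when WT replicate 1 or WT replicate 2 was left out (edgeR adjusted p 0.0588 and 0.0584). Only Dusp14 and Dusp12 among these 4 passed in all 13 alternatives. Without WT replicate 2 the list had 2 genes higher and 0 lower, and without WT replicate 1 or WT replicate 3 it had 3 higher and 1 lower. DESeq2 gave 2 higher, and plain library sizes and the replicate block gave 1 lower.

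Phosphatases of other families that act on MAP kinases had 1 of 7 higher and 0 lower. The 1 gene was Ppm1a, at 63.6 ± 0.557 and 73.2 ± 2.74 CPM (edgeR adjusted p = 0.0209), and it passed in 7 of 13 alternatives. The count was 0 without any 1 of the WT libraries, without KO replicate 2, without the low-count filter and with the replicate block. It was 2 without KO replicate 1 and with plain library sizes.

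Genes known to respond to ERK signalling went both ways, 9 of 26 higher and 7 lower, with a median log2 fold change of -0.05. ERK signalling is known to induce nearly all of them, but it represses Bcl2l11, a cell death gene that is in the list and did not pass. Phlda1 rose from 10.1 ± 0.782 to 148 ± 24.0 CPM, 14.7-fold (edgeR adjusted p = 2.09e-06), Egr1 from 89.5 ± 14.0 to 324 ± 56.9 CPM and Ier5 from 50.1 ± 4.90 to 113 ± 10.9 CPM. Mcl1, a survival gene of the BCL2 family, fell from 424 ± 17.2 to 248 ± 12.6 CPM. No test of the list was made, and the share of all genes called was 25.1% higher and 22.2% lower.

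**Figure D4:**
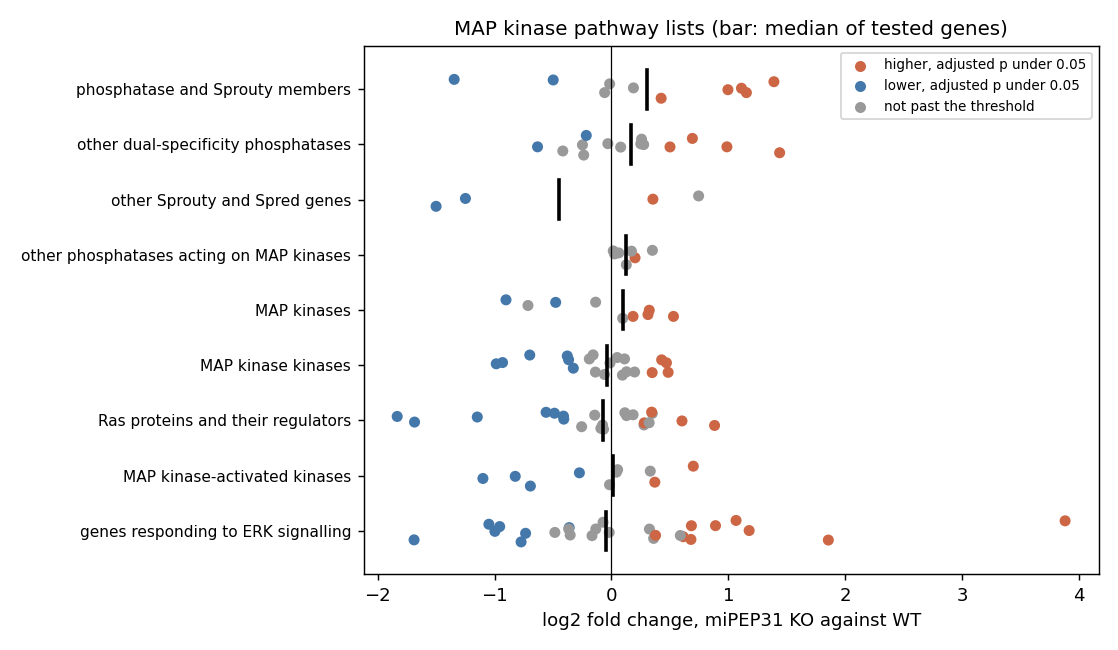
Log2 fold changes of the tested genes in each list, miPEP31 KO against WT, with the members in the top row. Coloured points passed at an adjusted p under 0.05 and black bars are medians. Medians run from -0.45 in the other Sprouty and Spred genes to 0.31 in the members.

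By their profile over the 6 libraries (log2 CPM with 0.5 CPM added, centred on the WT mean), the nearest of 12291 other genes to Spry2 were March3, Gspt2, Gprasp2, Wdr44 and Rnf135, at Euclidean distances of 0.171 to 0.213. The nearest to Spry1 were Tbc1d16, Tm4sf5, Npas2, Nrarp and 1110032F04Rik, at 0.256 to 0.365. These names are a description of likeness over 6 libraries that differ mainly by genotype.

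Markers of other cell types moved with genotype in part. The 6 macrophage markers summed to 6.31 to 9.66 CPM in WT and 33.8 to 65.5 CPM in KO, which rested on Mpeg1. Mpeg1 itself had 0.929 to 1.74 CPM in WT and 27.8 to 62.6 CPM in KO, highest in KO replicate 1 and lowest in KO replicate 3. Without Mpeg1, chosen after its values were seen, the sums were 4.57 to 8.58 and 2.89 to 6.02 CPM, and Adgre1, the defining marker of macrophages, was at 0 in all libraries. Dendritic cell markers summed to 6.25 to 7.58 CPM in WT and at most 13.1 CPM in KO, every KO library being above every WT library, with Clec9a at 0 in all libraries. This sum rested on Zbtb46, which had 4.54 CPM on average in WT and 9.37 CPM in KO and was the 1 of 3 tested dendritic cell markers that passed. NK cell markers summed to 4.96 to 7.45 and 10.3 to 21.8 CPM, which rested on Eomes at 5.34 and 15.5 CPM. The NK cell marker Klrb1c had 0.626 CPM in WT and 0.303 CPM in KO and did not pass, and Ncr1 had 0.115 and 0.195 CPM. CD8 T cell markers summed to 12.5 to 15.8 and 15.9 to 36.9 CPM, with 1 of 2 higher and 0 lower. Cd8a, at 3.29 CPM on average in WT and 12.2 CPM in KO, passed, and Cd8b1, at 10.4 and 14.7 CPM, did not. B cell markers summed to 50.8 to 75.8 and 56.7 to 103 CPM, with 3 of 5 higher (Cd79a, Cd79b and Ms4a1) and 0 lower. Neutrophil, erythroid and stromal markers summed to at most 1.39 CPM in any library, and S100a8 and S100a9 were at 0. CD4 T cell markers summed to 2551 to 2698 and 2504 to 2655 CPM, with 2 of 9 higher and 5 lower. The part of these markers in the changes of the members was not tested.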

How the data were processed

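RNA-seq libraries of 3 WT and 3 miPEP31 KO samples were used. The authors deposited estimated counts per gene, of which 72% of the values above 0 were whole. They were rounded before testing. Bowtie 0.12.2 and the build mm8 are named, without a role, per the submitters' processing notes. The counting program, its annotation and whether it used strand: not given in the sources used here. Of 51912 Ensembl IDs, 51633 had a symbol in GENCODE M21 (GRCm38), which also gave coordinates and transcripts, matched by ID. The 944 unnamed MSTRG rows (0.903% to 1.56% of a library's counts) stayed in the fit. A deposited table of 30 genes holds no member and was not used.

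Genes were filtered with filterByExpr (minimum count 10) and scaled with TMM, and 14387 were tested with the edgeR 4.0.16 quasi-likelihood test (robust, no covariate), with Benjamini-Hochberg adjustment over all of them and a threshold of 0.05. CPM are TMM-scaled. Standard errors were derived from the F statistic and the fold change fitted without a prior count. Length scaling used the transcript with the longest coding sequence. Alternatives used DESeq2 1.42.0, limma 3.58.1 (voom) and R 4.3.3. Only the edgeR fit was tested on simulated data. No library pair agreed within sampling noise.

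The members and lists were chosen with earlier results of these data known. All members are named. From each pathway list the up to 4 genes past the threshold with the smallest p are named. Spry3 was not analysed here.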

Additional observations from a re-analysis of the deposited data

How the results depend on the processing

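All 13 alternatives kept 5 members higher and 2 lower: DESeq2, limma-voom, upper-quartile scaling, plain library sizes, no low-count filter, a minimum of 1 CPM in 3 libraries, a replicate block, and leaving out each library. Each of the 7 called members passed in all 13, the largest adjusted p being 0.0342, for Dusp5. Dusp16, which did not pass, changed sign with plain library sizes (log2 fold change 0.030) and ranged from -0.147 to 0.073 when 1 library was left out. Dusp1 and Dusp10 passed in none. Over all genes, calls ranged from 2723 to 4088 higher and 2419 to 3594 lower, within 1.5 times the main counts. The labels number the replicates 1 to 3 in both groups, but same-numbered libraries did not deviate together (correlations -0.0070, 0.019 and -0.039). With the replicate block 3049 genes were higher and 2687 lower, and the member counts were 5 and 2. With 3 libraries a group, Spry2, at 29 to 102 counts, is the member that depth limits most.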

Other observations

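Several dual-specificity phosphatase genes were given few or no counts in these libraries. Of 20 genes in that list outside the members, 6 were not tested for lack of counts, and none of these 6 had more than 8.75 counts in any library. Dusp9, which encodes the third ERK phosphatase of the cytoplasm beside those of Dusp6 and Dusp7, had 2.85 CPM on average in WT and 2.41 CPM in KO with an edgeR adjusted p of 0.551. Spry4, a Sprouty gene beside the members, had 1.40 CPM in WT and 2.36 CPM in KO. Its KO libraries lay above its WT libraries, but the edgeR adjusted p was 0.0748, at a log2 fold change of 0.75 (SE 0.30). Dusp9 and Spry4 were picked with their values in view.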
